A study of Homo sapiens with 8 samples.

Results

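The miR-99/100 and miR-125 families are made from 3 chromosomal clusters, each of which holds a miR-99 or miR-100 hairpin, a let-7 hairpin and a miR-125 hairpin. Of the 945 miRNA features in the deposited tables, 8 were arms of these miR-99, miR-100 and miR-125 hairpins taken by a fixed list of names, and all 8 were found: hsa-miR-100-5p, hsa-miR-100-3p, hsa-miR-125b-5p, hsa-miR-125b-1-3p, hsa-miR-99a-5p, hsa-miR-99b-5p, hsa-miR-99b-3p and hsa-miR-125a-5p, written without the species prefix from here on. Small RNA was sequenced on an Ion PGM instrument from H1299, an established p53-null line of non-small cell lung carcinoma taken from a lymph node. The 4 groups, of 2 libraries each, were H1299/EV, which carries an empty vector, untreated or exposed to etoposide, and H1299/mutant p53R273H, which stably expresses the R273H mutant of p53 from a pCMV vector, untreated or exposed to etoposide. Etoposide, a topoisomerase II poison that causes DNA breaks, was given for 24 h, and the labels state its concentration as 10 µM in one protocol and as 10 mM in another. H1299/EV cells came from another laboratory, while R273H cells were picked as colonies that resisted 800 µg/ml G418 and were then kept in 400 µg/ml G418, which is not stated for EV, so that the mutant and the history of the lines cannot be told apart, and all cells were at passages 15 to 20.

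miRNAs bind mRNAs mainly through bases 2 to 8 from their 5′ end, the seed, and arms with the same seed share most of their predicted targets. The 5p arms of the miR-99/100 family are known for repressing MTOR, IGF1R and SMARCA5, and the 5p arms of the miR-125 family, the mammalian lin-4 relatives, for repressing LIN28. In both families the 5p arm is the guide strand that is normally retained in Argonaute, and the 3p arm is the passenger strand that is mostly degraded. Products of one cluster can be cut from one primary transcript, but their levels also depend on processing and stability.

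The mature sequences of the 8 arms were taken from RefSeq (GRCh38.p14 table, 8 of 8 matched) and are shown because the results turn on which arms share a seed and on which arms can be told from each other. The seed is in capitals. The 3 miR-99/100 guides are followed by the 2 miR-125 guides and the 3 passenger strands.
miR-100-5p: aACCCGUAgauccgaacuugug
miR-99a-5p: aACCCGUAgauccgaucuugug
miR-99b-5p: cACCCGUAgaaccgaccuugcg
miR-125b-5p: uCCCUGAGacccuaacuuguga
miR-125a-5p: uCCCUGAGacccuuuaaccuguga
miR-100-3p: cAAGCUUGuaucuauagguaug
miR-99b-3p: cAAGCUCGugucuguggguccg
miR-125b-1-3p: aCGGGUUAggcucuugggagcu

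Counting positions from 1 at the 5′ end, miR-100-5p and miR-99a-5p differed by the substitution A16U alone, which is 1 difference in 22 bases. miR-99b-5p differed from miR-100-5p by 4 substitutions, A1C, U11A, A16C and U21C. The first 13 bases of miR-125b-5p and miR-125a-5p were identical, and their lengths were 22 and 24 bases. Among the 825 of the 945 miRNAs that could be matched to a sequence, the seed of the miR-99/100 guides was held by these 3 arms and no other, and the seed of the miR-125 guides by these 2 arms and no other. The seed of miR-99b-3p was also that of miR-99a-3p, which had at most 1 read in a library, and the seeds of miR-100-3p and miR-125b-1-3p were held by no other matched miRNA.

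Positions are from GENCODE 44 lifted to GRCh37. On chromosome 11, MIR100 (chr11:122022937-122023016), MIRLET7A2 (chr11:122017229-122017301) and MIR125B1 (chr11:121970465-121970552) lie on the minus strand within 52552 bp, in introns of the long non-coding RNA gene MIR100HG on the same strand. On chromosome 21, MIR99A (chr21:17911409-17911489), MIRLET7C (chr21:17912143-17912236) and MIR125B2 (chr21:17962557-17962645) lie on the plus strand within 51237 bp, inside MIR99AHG, of whose 258 annotated transcripts 3 have an exon over MIRLET7C, 3 have one over MIR125B2 and 0 have one over MIR99A. On chromosome 19, MIR99B (chr19:52195865-52195934), MIRLET7E (chr19:52196039-52196117) and MIR125A (chr19:52196507-52196592) lie on the plus strand within 728 bp. This group lies inside the protein-coding gene SPACA6 on the same strand and under an exon of the antisense gene SPACA6-AS1. miR-125b-5p is made from both MIR125B1 and MIR125B2, so its reads do not name a chromosome, whereas the other 7 arms come from 1 locus each.

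The libraries held 234545 to 579367 reads on annotated features, of which 213007 to 536991 were on miRNAs. miR-21-5p, an abundant miRNA of carcinoma lines, accounted for 30.6% to 44.5% of miRNA reads. Of 14 miRNAs listed as markers of other cells or of epithelium, 3 were absent from the tables and 10 had at most 14 reads in any library. Among the latter were the epithelial miR-200c-3p, miR-141-3p and miR-205-5p with 0 to 7 reads, so these libraries held few reads of them. The endothelial miR-126-3p had 449 to 1254 reads. Its level was 2306 to 4098 RPM (reads scaled to 1000000 miRNA reads per library) in EV and 1104 to 2253 in R273H. The summed level of the list, 2366 to 4272 RPM in EV and 1200 to 2296 in R273H, was thus nearly all miR-126-3p. The part of miR-126-3p in the differences between the lines was not tested. Since these are bulk libraries, fewer cells with a miRNA and less of it per cell cannot be told apart.

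Among the guides, miR-100-5p was the most abundant of the 8 arms in every library. It had 50347 and 30098 RPM in untreated EV, 45421 and 31907 in etoposide-treated EV, 25614 and 21713 in untreated R273H, and 18507 and 18589 in etoposide-treated R273H. All 4 EV libraries were above all 4 R273H libraries on this scale, and miR-100-5p ranked 3 to 6 among all miRNAs in EV and 7 to 15 in R273H. It made up 97.3% to 99.4% of the reads of the 3 miR-99/100 guides, so that the summed level of this seed family followed miR-100-5p, from 30446 to 50748 RPM in EV and from 18783 to 25851 in R273H.

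miR-125b-5p was the second most abundant arm, with 9253 and 5916 RPM in untreated EV, 10197 and 7978 in etoposide-treated EV, 2669 and 3484 in untreated R273H, and 4417 and 4747 in etoposide-treated R273H. The lowest EV library again stood above the highest R273H library. It made up 89.8% to 98.4% of the reads of the 2 miR-125 guides. The other guides were much rarer, with 166 to 484 RPM for miR-99b-5p, 133 to 542 for miR-125a-5p and 17.7 to 122 for miR-99a-5p. Among passenger strands, miR-125b-1-3p had 31.0 to 221 RPM, miR-100-3p 21.7 to 79.8 and miR-99b-3p 8.01 to 63.1. These levels are not corrected for the ligation bias of small RNA libraries, which differs between sequences, so an order of arms within a library is an order of reads.

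**Figure D1:**
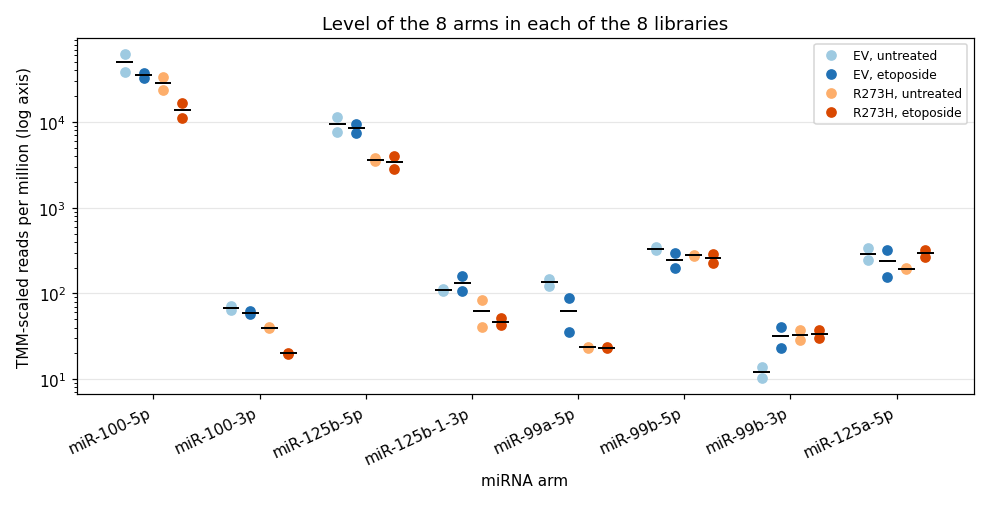
Counts per 1000000 miRNA reads of the 8 arms in the 8 libraries, scaled by the trimmed mean of M-values (TMM) over all libraries, on a log axis; each point is a library and each bar the mean of the 2 libraries of a group. For miR-100-5p, miR-100-3p, miR-125b-5p, miR-125b-1-3p and miR-99a-5p the R273H libraries sit mainly below the EV libraries, while the groups intermingle for miR-99b-5p and miR-125a-5p.

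The first comparison asked which of these arms differed in untreated cells that express the R273H mutant. miR-125b-5p and miR-99a-5p were lower in R273H, and the other 6 arms did not pass the test. The normalized counts here are the deposited ones, reads divided by a size factor per library. miR-125b-5p had 3440 and 2356 normalized counts in EV and 1237 and 1259 in R273H, which is 2898 ± 767 against 1248 ± 15.5 (mean ± SD, n = 2 each). Both R273H libraries were below both EV libraries. The fold change was 2.28-fold lower, with a log2 fold change of -1.19 (SE 0.28) and an adjusted p of 0.0054 by limma across all miRNAs tested with Benjamini-Hochberg adjustment. Folds in this test are on the log2(normalized count + 1) scale, which understates the change of rare arms.

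miR-99a-5p, the chromosome 21 guide that differs from miR-100-5p by a single base, had 45.0 and 38.3 normalized counts in EV and 8.21 and 8.0 in R273H. These rest on 65 and 24 reads against 8 and 9. The EV libraries were far above those of R273H, without overlap, and the log2 fold change was -2.22 (SE 0.47, limma adjusted p = 0.0031), 4.67-fold lower. In relation to miR-100-5p, miR-99a-5p made up 0.240% and 0.318% of the sum of both in untreated EV and 0.0691% and 0.102% in untreated R273H. The Wilson 95% intervals were 0.188% to 0.306% and 0.214% to 0.473% in EV, and 0.035% to 0.136% and 0.0536% to 0.193% in R273H, so that the last overlapped the first slightly. In etoposide-treated cells the shares were 0.268% and 0.0951% in EV and 0.138% and 0.215% in R273H, with no order between the lines. How the counting assigned reads with a mismatch between these arms, which are 1 base apart, is not given in the sources used here.

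miR-100-5p had 18717 and 11984 normalized counts in untreated EV and 11875 and 7849 in untreated R273H, 15350 ± 4762 against 9862 ± 2847. The lower EV library lay close to the higher R273H library. The log2 fold change of -0.63 (SE 0.28, 95% interval -1.23 to -0.04) had an unadjusted p of 0.037 and did not pass after adjustment (limma, adjusted p = 0.121). The value depended on the EV library kept, with -0.31 without EV library 1 (adjusted p = 0.579) and -0.96, which was called, without EV library 2 (adjusted p = 0.0411). Its passenger strand miR-100-3p had 19.4 and 22.3 against 14.4 and 13.3 normalized counts (log2 fold change -0.55, adjusted p = 0.434). miR-125b-1-3p, the passenger strand that belongs to the chromosome 11 hairpin alone, had 32.5 and 35.1 against 14.4 and 28.4 (log2 fold change -0.71, adjusted p = 0.283).

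The chromosome 19 arms showed no call in untreated cells. miR-99b-5p had 104 and 100.4 normalized counts in EV and 102 and 92.4 in R273H, overlapping between the lines. Its log2 fold change was -0.07 with a 95% interval of -0.82 to 0.67, and changes within it could not be detected with these libraries. For miR-125a-5p the EV libraries held 101.1 and 76.5 and the R273H libraries 68.8 and 65.8, a log2 fold change of -0.38 (95% interval -1.16 to 0.40). miR-99b-3p was the only arm with more counts in R273H, 10.3 and 12.4 against 4.15 and 3.19, from 10 and 14 reads against 6 and 2. Its log2 fold change of 1.41 (SE 0.57) had an adjusted p of 0.0864 in limma, and of 0.0495 in limma without the intensity trend.

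By adjusted p, 0 of the 8 arms were called higher and 2 lower, beside 10.9% and 9.54% of the 304 miRNAs tested. The median log2 fold change of the 8 arms was -0.59, against 0.10 for all tested miRNAs. With an unadjusted p under 0.05 and a change of at least 2-fold, the criteria used in the study, 1 arm (miR-99b-3p) was higher and 2 were lower, where 16.4% and 10.9% of all miRNAs met them. The edgeR quasi-likelihood test on the recovered reads called the same 2 arms, beside 11.7% of 308 miRNAs called lower, with adjusted p of 0.0059 for miR-125b-5p and 0.0045 for miR-99a-5p. Without the intensity trend, limma no longer called miR-125b-5p (adjusted p = 0.0787). Without R273H library 1 or library 2, limma called 0 miRNAs of all those tested, and the adjusted p was 0.164 and 0.161 for miR-125b-5p and 0.142 and 0.107 for miR-99a-5p, while the log2 fold changes stayed between -1.46 and -0.92 and between -2.34 and -2.11 whichever library was left out.

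The same contrast was made in the etoposide-treated libraries, which are other libraries of the same lines and share none with the untreated comparison. Here the 4 arms that MIR100 and MIR125B1 give were lower in R273H, and the other 4 arms did not pass the test. As these groups were deposited in separate tables, the recovered reads were tested with edgeR, and the values are TMM-scaled counts per 1000000 miRNA reads (CPM). miR-100-5p had 40202 and 45546 CPM in EV and 20271 and 13485 in R273H, 42874 ± 3779 against 16878 ± 4799. The highest R273H library held less than the lowest EV library by a wide margin. The log2 fold change was -1.34 (SE 0.50, edgeR adjusted p = 0.0407), 2.54-fold lower.

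miR-100-3p had 70.6 and 74.9 CPM in etoposide-treated EV and 23.8 and 24.95 in R273H, from 17 and 19 reads against 11 and 12. Its log2 fold change of -1.56 (SE 0.59, edgeR adjusted p = 0.0445) was 2.96-fold lower, near that of the guide strand. miR-125b-5p had 9025 and 11388 against 4838 and 3443 CPM, and was 2.46-fold lower (log2 fold change -1.30, SE 0.40, edgeR adjusted p = 0.0113). miR-125b-1-3p had 195 and 130.0 against 51.9 and 62.4 CPM, and was 2.83-fold lower (log2 fold change -1.501, SE 0.44, edgeR adjusted p = 0.0085). It rested on 47 and 33 reads against 24 and 30. Before TMM scaling these were 221 and 91.1 RPM in EV against 47.4 and 86.0 in R273H. The gap between the second libraries of the lines thus came mostly from the scaling. On the TMM scale, guide and passenger strand of each of these hairpins were lower together.

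miR-99a-5p had 108 and 43.3 CPM in etoposide-treated EV and 28.1 and 29.1 in R273H. The 2 EV libraries were far apart, and the log2 fold change of -1.39 (SE 0.57) did not pass (edgeR adjusted p = 0.0691). It rested on EV library 1, without which the log2 fold change was -0.62 (adjusted p = 0.421). Without EV library 2 it was -1.90 and was called (adjusted p = 0.0056), and with all 8 libraries in 1 fit it was -1.39 and was also called (adjusted p = 0.0417). On chromosome 19, miR-99b-5p had 357 and 236 against 275 and 351 CPM, with a log2 fold change of 0.08 and a 95% interval of -0.60 to 0.76. miR-125a-5p had 395 and 189 against 324 and 393 (log2 fold change 0.30, 95% interval -0.37 to 0.97). miR-99b-3p had 49.9 and 27.6 against 36.8 and 45.7 (log2 fold change 0.10, 95% interval -1.12 to 1.31). In all 3 the range of one line crossed that of the other.

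Of the 8 arms, 4 were called lower and 0 higher in this comparison, beside 12.5% and 7.12% of the 337 miRNAs tested, and their median log2 fold change was -1.32, against 0.04 for all. By the criteria of unadjusted p and fold, 5 arms were lower, where 13.9% of all miRNAs met them. With limma in place of edgeR, which called 11.4% of 333 miRNAs lower, miR-100-5p was not called (adjusted p = 0.153), and the other 3 were (adjusted p = 0.0429 for miR-100-3p, 0.0460 for miR-125b-5p and 0.0207 for miR-125b-1-3p). Leaving out a single library ended the calls of miR-100-5p, miR-100-3p and miR-125b-5p whichever library it was, and that of miR-125b-1-3p in all cases but 1, without EV library 2 (adjusted p = 0.000859). These fits called 4 to 39 miRNAs in all, against 66 with all 4 libraries, while the log2 fold changes stayed between -1.64 and -1.08 for miR-100-5p and between -1.53 and -1.08 for miR-125b-5p.

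**Figure D2:**
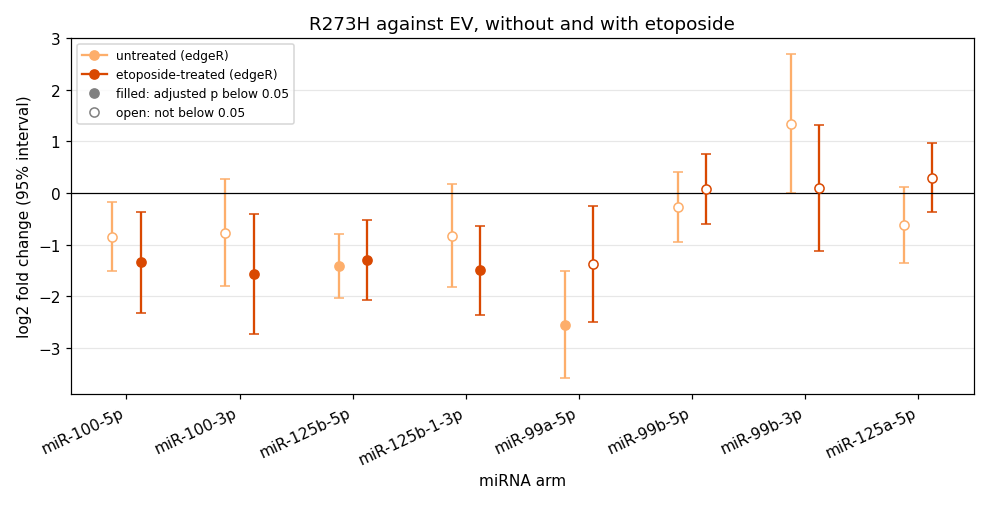
Log2 fold change of R273H against EV for each arm in untreated libraries (light) and in etoposide-treated libraries (dark), both by edgeR, with 95% intervals; filled points have an adjusted p under 0.05. miR-125b-5p is the arm called in both sets of libraries, and the intervals of miR-99b-5p and miR-125a-5p include 0 in both.

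The next question was whether etoposide changed these arms in either line. In EV, 0 of the 8 arms were called by adjusted p, beside 0.676% of 296 miRNAs, which is 2 miRNAs. Also by adjusted p, edgeR and DESeq2 called 1 miRNA each in all. At an unadjusted p under 0.05, limma had 1 of the 8 arms and 24 of all miRNAs. That arm also had a change of at least 2-fold, as did 4.39% of all miRNAs in the lower direction. It was miR-99a-5p, with 41.9 and 36.3 normalized counts in untreated EV and 24.8 and 10.8 after etoposide. Both treated libraries were below both untreated ones on this scale, and the log2 fold change was -1.20 (SE 0.50, unadjusted p = 0.0168, limma adjusted p = 0.343). The values rest on 65 and 24 reads against 26 and 11. Before division by size factors the arm had 121 and 96.1 RPM untreated and 122 and 30.4 after etoposide, which overlap. miR-100-5p had 17437 and 11382 against 9226 and 11373 normalized counts (log2 fold change -0.46, 95% interval -1.61 to 0.69), with 1 treated library level with the lower untreated one. miR-125b-5p had 3205 and 2237 against 2071 and 2844 (log2 fold change -0.14, 95% interval -0.97 to 0.69). Among the rarer arms in EV, miR-99b-3p had 3.87 and 3.03 normalized counts before and 11.4 and 6.89 after etoposide (log2 fold change 1.16, 95% interval -0.29 to 2.61, limma adjusted p = 0.783). The treated libraries were both higher, on 12 and 7 reads against 6 and 2. miR-99b-5p had 96.7 and 95.4 before and 82.0 and 59.0 after (log2 fold change -0.46, 95% interval -1.23 to 0.31). The ranges of miR-125a-5p (log2 fold change -0.33), miR-100-3p (-0.16) and miR-125b-1-3p (0.26) overlapped between treated and untreated EV.

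In R273H, 0 of the 8 arms and 0 of 341 miRNAs (0%) were called by limma with adjustment, while 2 of the arms and 31 of all miRNAs had an unadjusted p under 0.05. By adjusted p, edgeR called 0 miRNAs and DESeq2 called 1. The 2 arms were those of MIR100, and the guide was at least 2-fold lower, which with this unadjusted p held for 3.23% of all miRNAs. miR-100-5p had 15387 and 10428 normalized counts before and 7731 and 4815 after etoposide, and the treated libraries were both lower. Its log2 fold change was -1.05 (SE 0.43, 95% interval -1.98 to -0.13, unadjusted p = 0.0291, limma adjusted p = 0.495). Without treated library 2 the log2 fold change was -0.71 (adjusted p = 0.809), and without treated library 1 it was -1.40 and was called (adjusted p = 9.1e-05), in fits where the remaining treated library is assumed to vary like the untreated ones. miR-100-3p had 18.6 and 17.7 before and 9.07 and 8.91 after (log2 fold change -0.94, unadjusted p = 0.0295, limma adjusted p = 0.495). The size of both changes depended on the scaling. With the miRNA reads other than miR-21-5p as library size, the log2 fold changes were -0.51 for miR-100-5p and -0.43 for miR-100-3p. That scaling moved the median of all miRNAs by 0.53.

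On the deposited scale, the other arms overlapped between treated and untreated R273H libraries, or did not pass the test. miR-125b-5p, whose MIR125B1 locus is the chromosome 11 neighbour of MIR100, had 1603 and 1673 normalized counts before and 1845 and 1229 after etoposide in R273H (log2 fold change -0.12, 95% interval -0.89 to 0.65). Its direction and overlap depended on the scaling. In RPM it had 2669 and 3484 before and 4417 and 4747 after, and with library sizes free of miR-21-5p its log2 fold change was 0.42. miR-99a-5p had 10.6 and 10.6 before and 10.7 and 10.4 after, and miR-99b-5p had 132 and 123 before and 105 and 125.5 after. miR-125a-5p had 89.1 and 87.4 before and 124 and 140.3 after, with a log2 fold change of 0.57 that did not pass (95% interval -0.08 to 1.23, limma adjusted p = 0.510). The remaining passenger strands overlapped, miR-125b-1-3p with 18.6 and 37.8 before and 19.8 and 22.3 after, and miR-99b-3p with 13.3 and 16.5 before and 14.0 and 16.3 after. The untreated libraries of each line also enter the comparison of the lines, so that the etoposide values and those of the lines are not independent.

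Whether etoposide acted differently on the arms in the 2 lines was tested as an interaction over all 8 libraries with edgeR. It called 0 of the 8 arms and 0 of 334 miRNAs (0%), and at an unadjusted p under 0.05 there were 0 of the arms and 12 of all miRNAs. The difference of log2 fold changes (R273H minus EV) was 0.89 for miR-125a-5p (95% interval -0.11 to 1.89), 1.15 for miR-99a-5p (-0.35 to 2.64), -0.52 for miR-100-5p (-1.63 to 0.59) and 0.09 for miR-125b-5p (-0.90 to 1.07). The intervals are wide, so the responses of the lines are not shown to be alike.

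**Figure D3:**
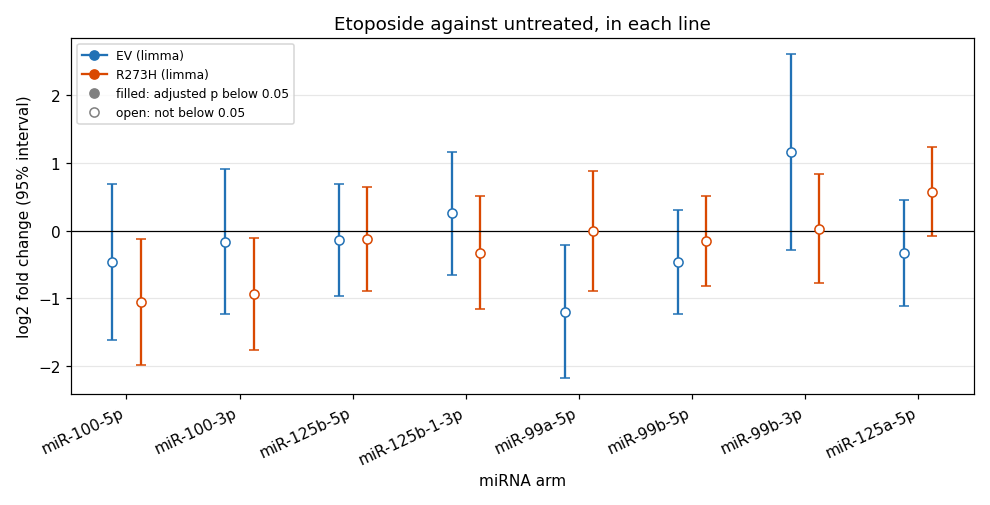
Log2 fold change of etoposide-treated against untreated cells for each arm in EV and in R273H, by limma on log2(normalized count + 1), with 95% intervals; all points are open because no adjusted p was under 0.05. The intervals lie below 0 for miR-99a-5p in EV and for miR-100-5p and miR-100-3p in R273H.

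Ratios of 2 arms within a library do not depend on the scaling between libraries and were set beside the tests. They were picked after the values were known and are given without a test. The share of miR-125a-5p among the reads of the 2 miR-125 guides was 2.85% and 3.15% in untreated EV, 4.19% and 1.63% in etoposide-treated EV, 5.26% and 4.96% in untreated R273H, and 6.28% and 10.2% in etoposide-treated R273H. Each R273H library had a larger share than each EV library. Its highest value in EV had a Wilson 95% interval of 3.44% to 5.10% and its lowest in R273H one of 3.97% to 6.19%, which overlap.

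The share of miR-99b-5p among the 3 miR-99/100 guides was 0.550% and 0.828% in untreated EV, 0.879% and 0.516% in etoposide-treated EV, 0.848% and 1.16% in untreated R273H, and 1.33% and 2.53% in etoposide-treated R273H. Here 1 R273H library lay below the highest EV library, and the treated R273H libraries were the highest. For the most abundant guide of each family, miR-125b-5p had 0.184 and 0.197 reads per read of miR-100-5p in untreated EV and 0.104 and 0.160 in untreated R273H. As miR-125b-5p can also come from chromosome 21, this is not a ratio within the chromosome 11 cluster. After etoposide the ratio was 0.224 and 0.250 in EV and 0.239 and 0.255 in R273H. Each treated library had a higher ratio than each untreated one, in both lines, although neither arm was called in either etoposide comparison.

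**Figure D4:**
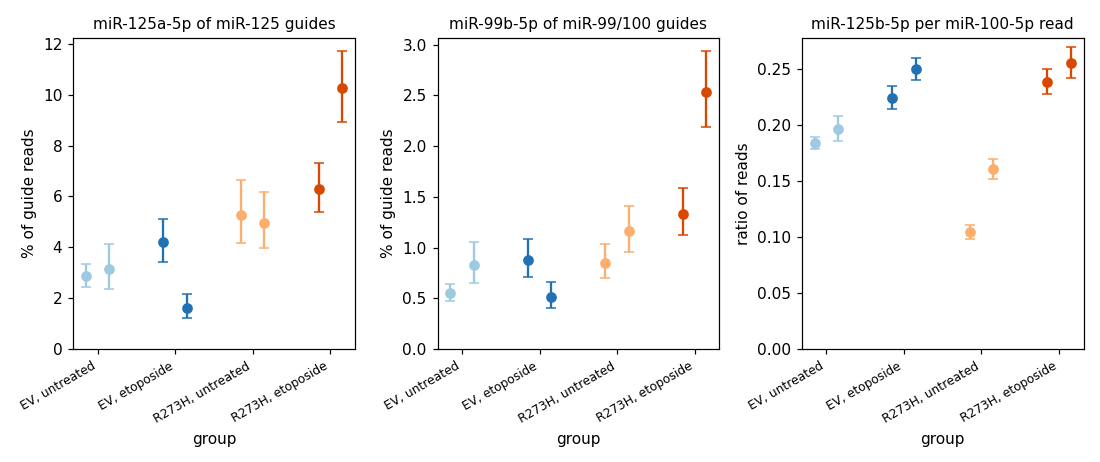
Share of miR-125a-5p among miR-125 guide reads, share of miR-99b-5p among miR-99/100 guide reads, and reads of miR-125b-5p per read of miR-100-5p, in each library by group, with Wilson 95% intervals that cover counting error only. The share of miR-125a-5p is 1.63% to 4.19% in EV and 4.96% to 10.2% in R273H, and the third panel lies between 0.104 and 0.197 without and between 0.224 and 0.255 with etoposide.

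The passenger strands made up small parts of the reads of their hairpins. miR-100-3p was 0.103% to 0.186% of the reads of both MIR100 arms over the 8 libraries. miR-125b-1-3p was 0.937% to 2.21% of its sum with miR-125b-5p, which chromosome 21 can also give. miR-99b-3p was a larger part of the MIR99B reads, with 3.85% and 3.08% in untreated EV, 12.2% and 10.4% in etoposide-treated EV, 9.17% and 11.9% in untreated R273H, and 11.8% and 11.5% in etoposide-treated R273H. The 2 untreated EV libraries stood below the other 6, on 6 and 2 reads of miR-99b-3p.

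The passenger strands of the chromosome 21 hairpins were close to absent. miR-125b-2-3p, the passenger strand of MIR125B2, had 1 read in 1 library and 0 in the other 7, whereas miR-125b-1-3p of chromosome 11 had 14 to 47 reads. miR-99a-3p and let-7c-3p had 0 or 1 read in each library. In the smallest library, of 213007 miRNA reads, a count of 0 allows up to 3 reads. The guides that only this chromosome gives were present at low counts, 2 to 16 reads of let-7c-5p and 8 to 65 of miR-99a-5p. Since miR-125b-5p comes from both loci, its share from chromosome 21 was not measured.

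The let-7 arms and remaining passenger strands were followed as the other products of the 3 clusters. Primary transcripts were not measured. Of 9 such arms, all were in a table, 4 were tested in untreated cells and 5 in each other comparison, and 0 were called in any of the 5 tests. Among all miRNAs tested, 10.9% were called higher and 9.54% lower between the untreated lines, and 7.12% and 12.5% between the treated lines. After etoposide 0.676% were called in EV and 0% in R273H, and the interaction called 0%. let-7a-2-3p, the only let-7a arm that names the chromosome 11 locus, had 21 and 11 reads in untreated EV, 5 and 3 in etoposide-treated EV, 6 and 10 in untreated R273H, and 3 and 3 in etoposide-treated R273H. In untreated cells it had 14.5 and 17.5 normalized counts in EV and 6.16 and 8.89 in R273H, without a call. In etoposide-treated cells it had 20.8 and 11.8 CPM in EV and 6.49 and 6.24 in R273H, also without a call. After etoposide its log2 fold change was -1.75 in EV (unadjusted p = 0.0106, limma adjusted p = 0.302) and -1.68 in R273H (unadjusted p = 0.0128, limma adjusted p = 0.472), in comparisons that share no library. The reads behind the treated values are at or near the limit of 3 reads. let-7e-5p, which lies between MIR99B and MIR125A, had log2 fold changes of 0.10 for R273H against EV in untreated cells and 0.003 in etoposide-treated cells. let-7a-5p, which 3 loci make, had -0.13 and -0.77 in these comparisons (limma adjusted p = 0.757, edgeR adjusted p = 0.269).

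miR-10a and miR-10b, the relatives nearest in sequence to miR-100, are encoded in HOX clusters and have another seed. miR-10a-5p is shown to set its seed beside that of the miR-99/100 guides.
miR-10a-5p: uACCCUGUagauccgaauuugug

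Of the 4 miR-10 arms, 3 were tested, and 10.9% of all miRNAs were called higher in untreated R273H. There miR-10a-3p was called higher (log2 fold change 1.55, limma adjusted p = 0.0433, from 15 and 21 reads against 8 and 3). In the etoposide-treated libraries it had a log2 fold change of 1.53 that did not pass (edgeR adjusted p = 0.0825). miR-10a-5p had log2 fold changes of 0.52 and 0.25 in the 2 comparisons, without a call (limma adjusted p = 0.194, edgeR adjusted p = 0.731).

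The patterns of the guides over the 8 libraries were compared with 237 miRNAs of at least 10 reads on average, by the root mean square difference of log2(RPM + 1) after centring, as a description. Nearest to miR-100-5p outside the 8 arms were miR-31-5p (0.26) and miR-3074-5p (0.32), while miR-100-3p lay at 0.31 and miR-125b-5p at 0.40. Nearest to miR-125b-5p were miR-625-5p (0.20) and let-7d-5p (0.27). For miR-99a-5p they were miR-625-3p (0.33) and miR-940 (0.35). The chromosome 19 guides had miR-92b-3p in common, at 0.20 from miR-99b-5p and 0.22 from miR-125a-5p, next to miR-196a-5p (0.22) for the former and miR-324-3p (0.21) for the latter, and lay 0.30 from each other. These libraries share their depth and scaling, so the distances carry no test.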

How the data were processed

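Reads of 17 to 35 bases with a Phred quality of at least 20 were aligned by the authors with SHRiMP to miRBase 20 and with Novoalign to GRCh37 (hg19), counted per feature and normalized with DESeq (version not given in the sources used here). The authors deposited the normalized count signal, reads divided by a size factor per library, in 3 tables normalized separately. Reads were recovered from it: 100% of values were whole within 0.011 normalized counts, with 0 features differing between tables. A further 3 deposited tables hold the authors' fold changes and p-values and were not used. How multiply mapping reads or mismatches were counted is not given in the sources used here.

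Within each table, miRNAs averaging at least 3 normalized counts were log2-transformed after adding 1 and tested with limma 3.58.1 (R 4.3.3), whose variance prior followed the mean level. The etoposide-treated lines and the interaction were tested on recovered reads with the edgeR 4.0.16 quasi-likelihood test after TMM scaling, with DESeq2 1.42.0 as an alternative. This edgeR test gives no SE. The SEs and 95% intervals printed for edgeR were derived from its fold change and F statistic, and so restate its unadjusted p. Calls are Benjamini-Hochberg adjusted p under 0.05 over all miRNAs tested. With 2 libraries against 2, an exact two-sided permutation test cannot go below 0.333. The study calls its replicates biological, the labels do not say from which cultures they came, and p-values measure the spread between these libraries. Replicates differed by far more than counting noise (chi-square per degree of freedom 32.3 to 70.4). Wilson 95% intervals and the limit of 3 reads for a count of 0 cover counting error only. TMM factors were 0.771 to 1.69.

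The members, lists, marker miRNAs and tests were chosen with earlier results of these data known. Named were the 8 arms, 9 other arms of the clusters, 4 miR-10 arms, the 2 miRNAs nearest in pattern to each guide, and miR-21-5p. Positions and sequences came from GENCODE 44 on GRCh37 and RefSeq, where 12 of 13 non-member arms matched. Python 3.11.15, pandas 2.3.3 and SciPy 1.17.1 were used. Alternatives were other pseudocounts, filters, scalings and tools, a replicate block, and each library left out.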

Additional observations from a re-analysis of the deposited data

How the results depend on the processing

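Depth limits the rare arms (miR-99a-5p, miR-99b-3p and the passenger strands, at 2 to 65 reads), and 2 libraries a group limit all of them. Of 534 values of the arms under the alternatives, 469 kept direction and side of the threshold, 34 lost and 6 gained a call, and 25 changed sign, none of them called in the first place. The causes were not tested beyond what each alternative leaves out.

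In untreated cells, 62 miRNAs were called for R273H against EV, 37 with library sizes free of miR-21-5p, 39 without the limma trend (which lost miR-125b-5p and gained miR-99b-3p), 34 by DESeq2, and 0 to 51 without 1 library (members 0 to 3). In EV, etoposide called 2 miRNAs, 0 with library sizes free of miR-21-5p, 1 each without trend, by edgeR and by DESeq2, and 0 to 1 without 1 library. In R273H it called 0, 2 at a mean of at least 10, 4 with library sizes free of miR-21-5p, 1 by DESeq2, and 0 to 9 without 1 library (members 0 to 1, namely miR-100-5p without etoposide library 1). In etoposide-treated cells 66 miRNAs were called between the lines, 28 by DESeq2, 14 without TMM, and 4 to 39 without 1 library. Members called there were 4, 1 without a filter, 2 by DESeq2, 2 without TMM, 5 with all 8 libraries in 1 fit (miR-99a-5p added), and 0 to 2 without 1 library, where miR-125b-1-3p and miR-99a-5p were the 2. The interaction called 0 to 1 without 1 library. In fits with 1 library in a group, that library is assumed to vary like the others.

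Some scalings moved the median of all miRNAs by more than 0.1 (log2). These were equal upper quartiles (0.11), edgeR (-0.18) and DESeq2 (-0.11) for untreated cells, library sizes free of miR-21-5p for etoposide in EV (0.37) and in R273H (0.53), and no TMM (0.30) or no filter (0.23) for the treated lines. For the interaction, no TMM moved it by 0.25 and no filter by 0.16.

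Arms near 0 changed sign. With library sizes free of miR-21-5p, the log2 fold change after etoposide in EV became 0.20 for miR-100-3p, 0.24 for miR-125b-5p and 0.041 for miR-125a-5p, and in R273H 0.42 for miR-125b-5p, 0.20 for miR-125b-1-3p, 0.49 for miR-99a-5p and 0.39 for miR-99b-5p. With equal upper quartiles it became 0.039 for miR-99b-5p between untreated lines and -0.060 for miR-99b-3p after etoposide in R273H. Leaving out 1 library at a time gave ranges across 0. After etoposide in EV they were -0.40 to 0.12 for miR-125b-5p and -0.80 to 0.13 for miR-125a-5p, and in R273H -0.41 to 0.17 for miR-125b-5p, -0.82 to 0.17 for miR-125b-1-3p, -0.031 to 0.011 for miR-99a-5p and -0.12 to 0.17 for miR-99b-3p. Between the treated lines they were -0.18 to 0.38 for miR-99b-5p, -0.26 to 0.55 for miR-99b-3p and -0.13 to 0.89 for miR-125a-5p, and for the interaction -0.23 to 0.36 for miR-125b-5p.

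The replicate block called 0 miRNAs and 0 members in untreated cells (adjusted p 0.0677 for miR-125b-5p and 0.0617 for miR-99a-5p), 12 miRNAs and 0 members between the treated lines, 2 after etoposide in EV, 0 in R273H and 0 for the interaction. The deviations of same-numbered libraries from their group means had correlations of r = -0.03, 0.04, -0.08 and, between the treated lines, -0.24. With 2 libraries a group, this cannot decide whether same-numbered libraries were made together, which the labels do not state. A crossed pairing of the treated lines, chosen after seeing the data, called 102 miRNAs.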
